A study of Mus musculus with 60 samples.

Results

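Axon guidance ligands and receptors make up 4 signalling systems that steer growing axons: ephrins with Eph receptors, semaphorins with plexins and neuropilins, Slits with Robo receptors, and netrins with Dcc and Unc5 receptors. They were taken from the count table by gene symbol, without use of a measured value, and 70 of its 21950 genes met the rule. These were 14 Eph receptors, 8 ephrins, 20 semaphorins, 9 plexins, 2 neuropilins, 3 Slits, 4 Robo receptors, 3 netrins, 2 netrin-G ligands, and 5 netrin receptors. RNA was sequenced from striatum, hippocampus and prefrontal cortex of knockout mice (KO, genotype Adgrl3 -/-, also written Lphn3 -/-) and wild-type mice (WT, Adgrl3 +/+, also written Lphn3 +/+). The mice were killed at postnatal days 65 to 76, and the regions were dissected from frozen brains. Each genotype and region had 10 libraries, 60 in all, and the protocol names 12 mice of each genotype. The sources used here give neither the altered part of Adgrl3 nor sex or litter. Whether the 10 libraries of a group came from separate mice is not stated, so p-values measure the spread between these libraries.

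These cues bind receptors on the growth cone and attract, stop or turn it. Ephrins act between touching cells, while class 3 semaphorins, Slits and netrins are secreted, and most class 3 semaphorins bind a neuropilin that signals through a plexin. In the adult brain many of these genes stay active, with known roles at synapses and dendritic spines. Adgrl3 encodes latrophilin-3, an adhesion receptor of synapses that binds FLRT proteins, which in turn bind Unc5 receptors.

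Library totals lay between 38985577 and 51387833 counted reads, of which the 70 genes took 0.285% to 0.463%. Levels are in CPM, which are counts scaled by library size with TMM factors, and each gene was counted over its whole span, introns included. Adgrl3 itself had 32.5 to 46.9 CPM in KO and 144 to 176 CPM in WT striatum, 30.7 to 39.6 CPM in KO and 117 to 131 CPM in WT hippocampus, and 16.5 to 44.2 CPM in KO and 126 to 172 CPM in WT prefrontal cortex, so the genotypes did not overlap in any region. Markers of striatal projection neurons summed to 4068 to 6365 CPM in KO and 4109 to 5990 CPM in WT striatum, against 94.8 to 472 CPM in KO and 96.97 to 508 CPM in WT hippocampus, where KO replicate 2 and WT replicate 8 were the highest. Hippocampal neuron markers summed to 742 to 1048 CPM in KO and 846 to 1024 CPM in WT hippocampus and were lower in every library of the other regions. Cortical excitatory neuron markers summed to 2289 to 2544 CPM in KO and 2232 to 2456 CPM in WT prefrontal cortex, against 451 to 1182 CPM in KO and 536 to 1003 CPM in WT striatum.

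Of the 70 genes, 68 reached a mean of 1 CPM in at least 1 group. The other two were Epha1, with at most 0.487 CPM in KO and 0.517 CPM in WT libraries, and Efna4, with at most 0.695 CPM in KO and 0.655 CPM in WT libraries. Levels of different genes were set side by side per kb of gene span, introns included, a scale on which a long gene ranks lower. On that scale the top gene was Efnb3, a transmembrane ephrin, with a mean of 27.2 CPM per kb in KO and 27.3 CPM per kb in WT striatum. Ephb6, which encodes an Eph receptor without kinase activity, came next with 14.8 CPM per kb in KO and 14.6 CPM per kb in WT prefrontal cortex. Sema7a, a semaphorin held to the membrane by a lipid anchor, had 8.17 CPM per kb in KO and 7.17 CPM per kb in WT prefrontal cortex, and the transmembrane semaphorin Sema6b had 8.07 CPM per kb in KO and 7.43 CPM per kb in WT. Dcc, whose span is the longest of the 70, had 0.0314 CPM per kb in KO and 0.0337 CPM per kb in WT striatum. Since intronic reads count, a level per kb is not that of the mature transcript alone.

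Large differences lay between regions. Region contrasts were fitted separately in the 30 KO and the 30 WT libraries, and a gene was called at a Benjamini-Hochberg adjusted p under 0.05 in edgeR's quasi-likelihood test together with an absolute log2 difference of at least 1. The 3 contrasts of a genotype share libraries, and their fits take libraries of the same replicate number as independent. Between striatum and hippocampus 22 of 69 genes were called in KO, 9 higher (5.76%) and 13 lower (4.68%) in striatum, against 10.4% called among all genes; the shares in brackets are those of all genes in that direction. In WT mice 19 of 69 were called, 7 higher (5.12%) and 12 lower (5.06%), against 10.2%. Between striatum and prefrontal cortex 16 were called in KO, 8 higher (7.64%) and 8 lower (4.94%) in striatum (12.6% of all genes), and 15 in WT, 9 higher (7.07%) and 6 lower (4.54%) (11.6% of all genes). Between hippocampus and prefrontal cortex 17 were called in KO, 12 higher (5.68%) and 5 lower (4.06%) in hippocampus (9.74% of all genes), and 16 in WT, 11 higher (5.98%) and 5 lower (4.16%) (10.1% of all genes). Among the 69 genes tested the called share was 31.9%, 23.2% and 24.6% in KO and 27.5%, 21.7% and 23.2% in WT. Epha1 did not pass the filter on low counts. In whole tissue, fewer cells of a type and less RNA per cell cannot be told apart.

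**Figure D1:**
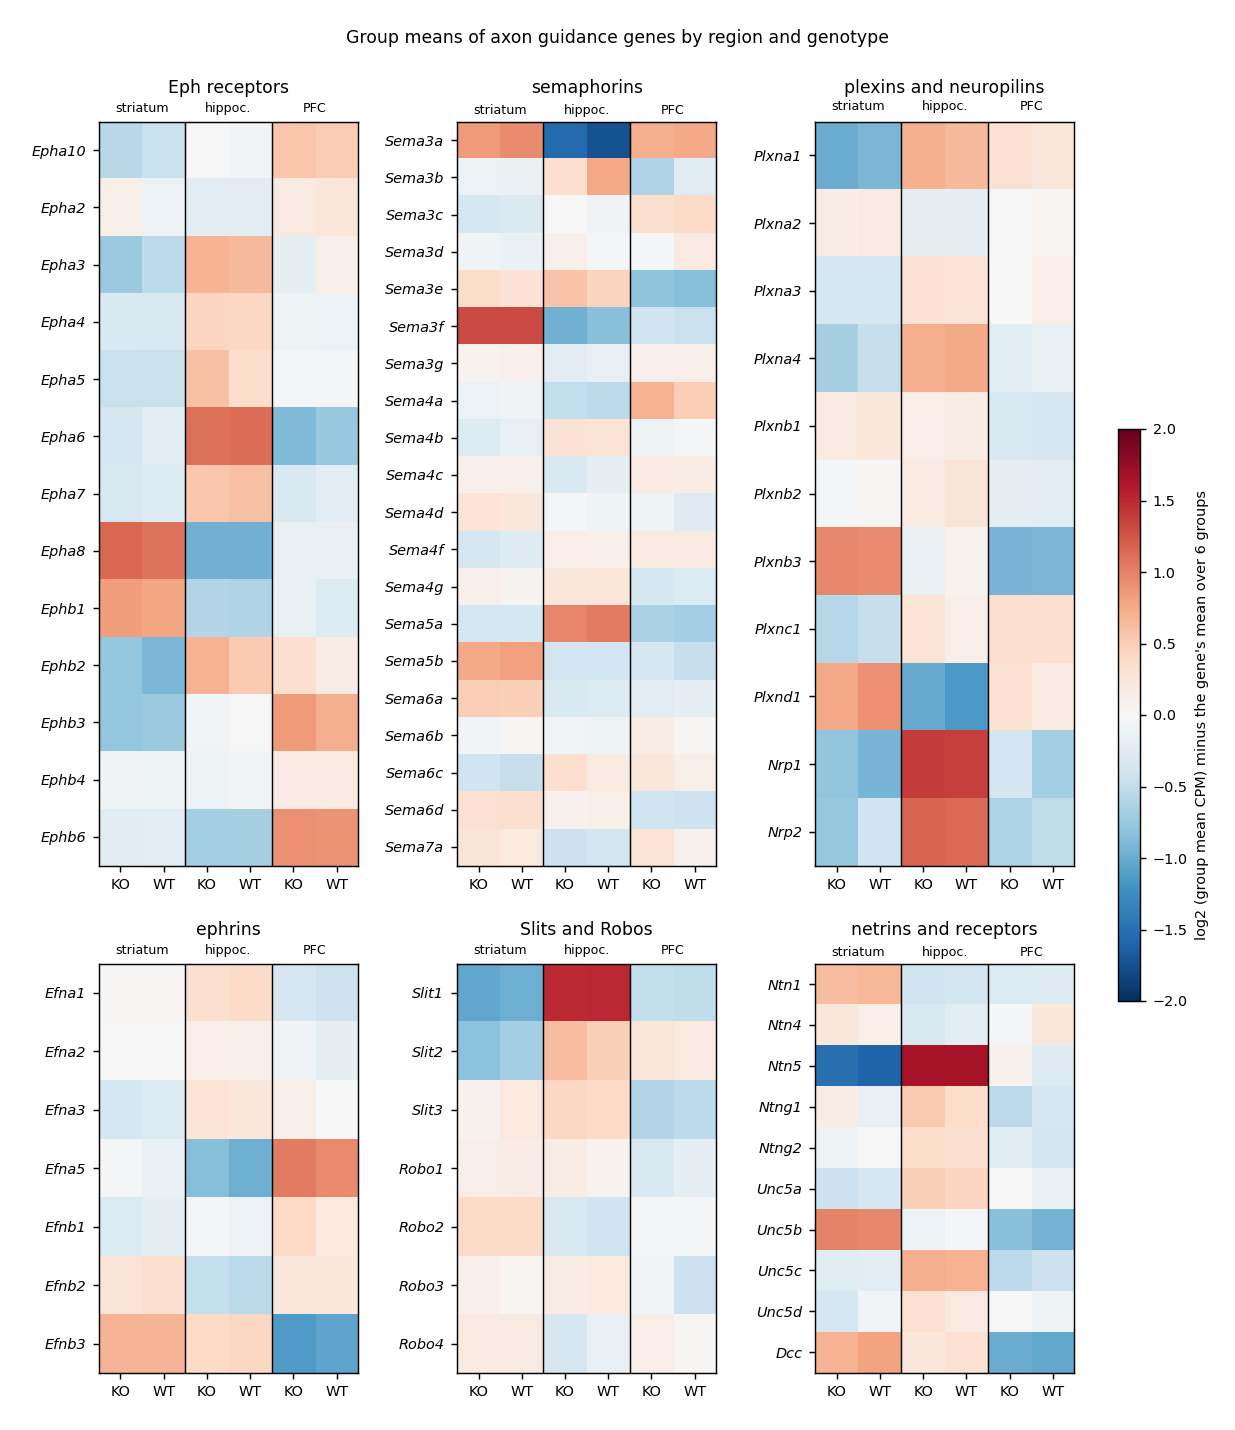
Heat map of the 68 genes with a mean of at least 1 CPM in some group. Each row is a gene, each column a group of 10 libraries (KO left of WT within striatum, hippocampus and prefrontal cortex, PFC), and colour gives the log2 level relative to the gene's mean over the 6 groups; KO and WT columns of a region look alike, while columns of different regions differ, as for Sema3a, Ntn5, Slit1, Nrp1 and Sema3f.

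Among the secreted class 3 semaphorins, Sema3a (chr5:13125414-13602565, plus strand, GRCm38), the classic growth cone collapsing factor, had the greatest excess of striatum over hippocampus. Its level was 20.5 to 39.5 CPM in KO (median 31.2) and 27.8 to 37.98 CPM in WT striatum (median 33.6), 2.62 to 9.67 CPM in KO (median 5.78) and 3.56 to 8.58 CPM in WT hippocampus (median 4.63), and 21.2 to 37.2 CPM in KO (median 28.5) and 24.8 to 34.2 CPM in WT prefrontal cortex (median 29.8). Every hippocampus library lay below every library of the other regions in both genotypes. The log2 difference of striatum minus hippocampus was 2.41 ± 0.15 in KO and 2.69 ± 0.11 in WT (SE), with adjusted p of 1.35e-14 in KO and 1.93e-19 in WT in edgeR.

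Nrp1 (chr8:128358604-128503363, plus strand) encodes neuropilin-1, the receptor subunit that binds Sema3a, and had the opposite order. It had 16.6 to 23.8 CPM in KO (median 18.9) and 13.7 to 20.7 CPM in WT striatum (median 17.8), 74.6 to 102 CPM in KO (median 88.9) and 77.3 to 102 CPM in WT hippocampus (median 86.3), and 19.7 to 30.7 CPM in KO (median 25.9) and 15.4 to 27.5 CPM in WT prefrontal cortex (median 20.7). All hippocampus libraries lay above all others, and the log2 difference of striatum minus hippocampus was -2.19 ± 0.08 in KO and -2.31 ± 0.07 in WT (SE; adjusted p of 9.55e-22 in KO and 3.32e-23 in WT, edgeR). Plxna4, a plexin that carries the Sema3a signal, had medians of 91.7, 262 and 135 CPM in striatum, hippocampus and prefrontal cortex of KO mice and of 109, 259 and 136 CPM in the same regions of WT mice. Its log2 difference of striatum minus hippocampus was -1.38 ± 0.08 in KO and -1.23 ± 0.06 in WT, and that of Plxna1, another plexin partner of neuropilins, was -1.71 ± 0.08 in KO and -1.56 ± 0.07 in WT.

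Neuropilin-2, the product of Nrp2 (chr1:62703285-62818695, plus strand), prefers Sema3f, and its gene was likewise highest in hippocampus. Nrp2 had 14.7 to 36.9 CPM in KO and 19.8 to 46.8 CPM in WT striatum, 80.8 to 111 CPM in KO and 81.5 to 108 CPM in WT hippocampus, and 22.1 to 31.7 CPM in KO and 24.3 to 35.1 CPM in WT prefrontal cortex. Sema3f was highest in striatum without overlap, with 14.2 to 26.2 CPM in KO and 16.1 to 24.6 CPM in WT striatum, against 2.51 to 5.82 CPM in KO and 2.74 to 6.66 CPM in WT hippocampus. The log2 difference of striatum minus hippocampus was -1.91 ± 0.12 in KO and -1.53 ± 0.11 in WT for Nrp2 and 2.29 ± 0.13 in KO and 2.16 ± 0.12 in WT for Sema3f (SE). In both pairs, Sema3a with Nrp1 and Sema3f with Nrp2, the ligand gene was called higher and the receptor gene lower in striatum than in hippocampus. These genes were named for their large differences in this contrast, and no other class 3 semaphorin was called in it in either genotype. In prefrontal cortex Sema3f had 4.86 to 6.59 CPM in KO and 4.68 to 6.41 CPM in WT. There both Sema3f and Nrp2 lay below their highest region.

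Sema3e differs from its family in that it binds plexin-D1 directly. It had 58.6 to 79.4 CPM in KO and 54.8 to 72.0 CPM in WT striatum, 61.1 to 98.5 CPM in KO and 64.9 to 86.6 CPM in WT hippocampus, and 25.7 to 35.99 CPM in KO and 24.9 to 36.8 CPM in WT prefrontal cortex. Prefrontal cortex was the low region without overlap, and the log2 difference was 1.17 ± 0.07 in KO and 1.14 ± 0.06 in WT for striatum minus prefrontal cortex and 1.37 ± 0.07 in KO and 1.31 ± 0.06 in WT for hippocampus minus prefrontal cortex (SE). Plxnd1 (chr6:115954811-115995005, minus strand), the receptor gene, had another order, with medians of 119, 35.4 and 93.5 CPM in striatum, hippocampus and prefrontal cortex of KO mice and of 143, 31.9 and 83.9 CPM in the same regions of WT mice. Hippocampus libraries had the least Plxnd1 without overlap, and striatum minus hippocampus was 1.77 ± 0.13 in KO and 2.05 ± 0.09 in WT on the log2 scale (SE).

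**Figure D2:**
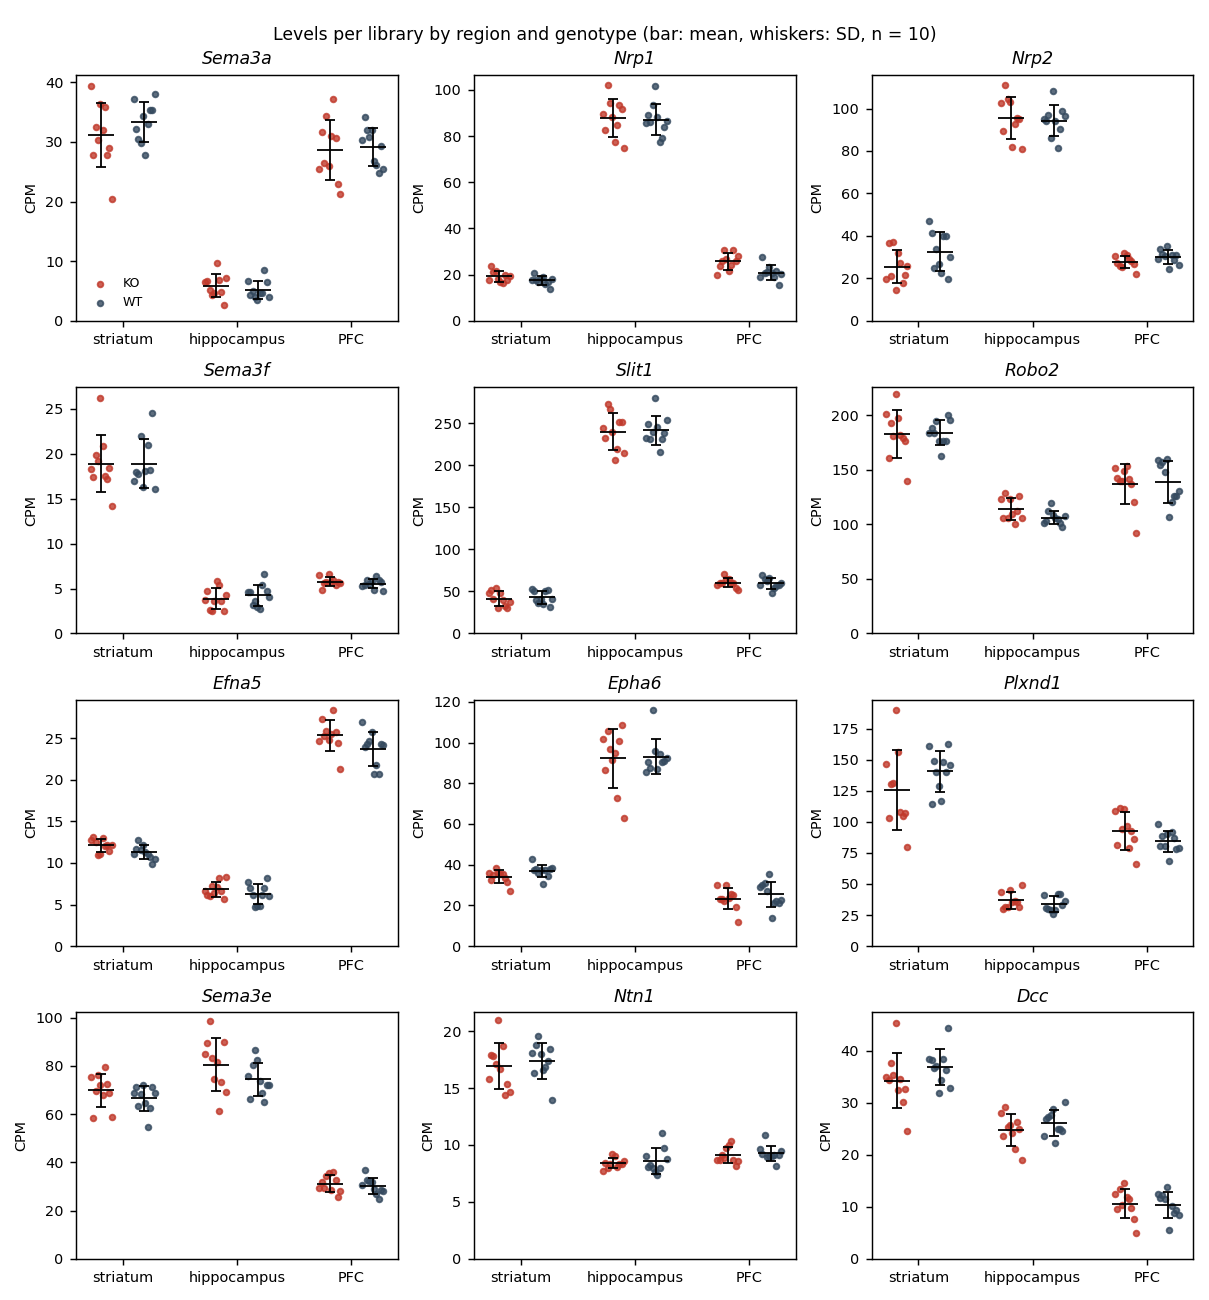
Levels of 12 axon guidance genes in CPM (y axis, linear, from 0) in striatum, hippocampus and prefrontal cortex (PFC), KO left of WT. Each dot is a library, and the bar and whiskers are the mean and SD of 10 libraries; Sema3a, Efna5 and Plxnd1 are lowest and Nrp1, Nrp2, Slit1 and Epha6 highest in hippocampus, and KO and WT dots overlap in each panel.

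Between striatum and hippocampus the calls among the 20 semaphorins were 3 higher and 1 lower in KO and 3 higher and 1 lower in WT, and those among the 9 plexins were 2 higher and 2 lower in KO and 1 higher and 2 lower in WT. That is 20% in KO and 20% in WT of the semaphorins and 44.4% in KO and 33.3% in WT of the plexins, against 10.4% in KO and 10.2% in WT of all genes. The semaphorins called lower, 1 of 20 in each genotype, were near the share of all genes in that direction (4.68% in KO and 5.06% in WT). Both neuropilins were called lower in striatum than in hippocampus, in KO and in WT. Between striatum and prefrontal cortex 15% of semaphorins and 22.2% of plexins were called in each genotype. All genes there had 12.6% in KO and 11.6% in WT. Between hippocampus and prefrontal cortex 20% of semaphorins in KO and 25% in WT were called, and 11.1% of plexins in each genotype. The plexin share there was near the 9.74% in KO and 10.1% in WT of all genes. Other semaphorins had their high level elsewhere. Sema5a, a transmembrane semaphorin, was highest in hippocampus, with medians of 65.4, 154 and 50.8 CPM in striatum, hippocampus and prefrontal cortex of KO mice and of 65.6, 163 and 49.6 CPM in the same regions of WT mice. Sema5b was highest in striatum, with 26.6 to 42.9 CPM in KO and 29.2 to 41.2 CPM in WT striatum, while no library of the other regions exceeded 18.95 CPM in KO or 17.3 CPM in WT mice. Sema4a was highest in prefrontal cortex, with 52.6 to 69.8 CPM in KO and 48.7 to 60.2 CPM in WT prefrontal cortex, and hippocampus minus prefrontal cortex was -1.20 ± 0.06 in KO and -1.01 ± 0.06 in WT (log2, SE). In WT mice that value was -0.99 without replicate 5, short of the size threshold. Plxnb3 encodes a plexin of oligodendrocytes, and its striatum minus prefrontal cortex difference was 1.89 ± 0.12 in KO and 1.87 ± 0.10 in WT (log2, SE). Mature oligodendrocyte markers summed to 5831 to 11120 CPM in KO and 5441 to 10580 CPM in WT striatum, against 1394 to 2407 CPM in KO and 1247 to 1642 CPM in WT prefrontal cortex, and their part in the Plxnb3 difference was not tested.

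Among Eph receptors and ephrins, of which 13 and 8 were tested, members of the A class had different leading regions on both the receptor and the ligand side. Between striatum and hippocampus the Eph receptor calls were 2 higher and 4 lower in KO and 2 higher and 3 lower in WT, a share of 46.2% in KO and 38.5% in WT against 10.4% in KO and 10.2% in WT of all genes. The ephrin calls were 0 higher and 1 lower in KO and 0 higher and 1 lower in WT, a share of 12.5% in KO and 12.5% in WT, near that of all genes. Between striatum and prefrontal cortex the calls were 1 higher and 4 lower in KO and 2 higher and 3 lower in WT for Eph receptors (38.5% in KO and 38.5% in WT) and 1 higher and 1 lower in KO and 1 higher and 1 lower in WT for ephrins (25% in KO and 25% in WT), against 12.6% in KO and 11.6% in WT of all genes. Between hippocampus and prefrontal cortex 15.4% of Eph receptors were called in each genotype, and 37.5% of ephrins in KO and 25% in WT. All genes had 9.74% in KO and 10.1% in WT in that contrast. Epha6 (chr16:59653483-60605531, minus strand) had 27.2 to 38.5 CPM in KO and 30.3 to 42.7 CPM in WT striatum, 63.2 to 108 CPM in KO and 85.7 to 116 CPM in WT hippocampus, and 11.7 to 30.2 CPM in KO and 13.8 to 35.4 CPM in WT prefrontal cortex. Its log2 difference of hippocampus minus prefrontal cortex was 1.98 ± 0.12 in KO and 1.88 ± 0.10 in WT (SE; adjusted p of 1.99e-15 in KO and 3.05e-16 in WT, edgeR). Hippocampus libraries also lay above all others of their genotype for Epha3, Epha5 and Epha7. For Epha3 the level had medians of 5.93, 16.1 and 8.78 CPM in striatum, hippocampus and prefrontal cortex of KO mice and of 7.01, 15.5 and 11.1 CPM in the same regions of WT mice. Epha10 was highest in prefrontal cortex instead and Epha8 in striatum, both without overlap. Epha10 had 41.5 to 51.5 CPM in KO and 40.9 to 50.9 CPM in WT prefrontal cortex, against 25.6 to 38.7 CPM in KO and 27.7 to 33.2 CPM in WT hippocampus. Epha8 had 11.1 to 15.8 CPM in KO and 10.1 to 14.9 CPM in WT striatum, against 1.69 to 4.08 CPM in KO and 2.16 to 4.17 CPM in WT hippocampus. The difference of striatum minus hippocampus was 0.33 in KO and 0.08 in WT for Epha2 (log2) and was not called.

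The ephrin-A ligands, which are held to the membrane by a lipid anchor, also differed among themselves. Efna5 (chr17:62604184-62881317, minus strand), which repels axons in topographic maps, was lowest in hippocampus, with 10.98 to 13.2 CPM in KO and 9.91 to 12.8 CPM in WT striatum, 5.64 to 8.34 CPM in KO and 4.69 to 8.23 CPM in WT hippocampus, and 21.3 to 28.4 CPM in KO and 20.7 to 26.9 CPM in WT prefrontal cortex. The 3 regions did not overlap for Efna5, and hippocampus minus prefrontal cortex was -1.89 ± 0.06 in KO and -1.92 ± 0.08 in WT (log2, SE). Efna3 had its highest medians in hippocampus, with medians of 36.5, 58.7 and 52.6 CPM in striatum, hippocampus and prefrontal cortex of KO mice and of 40.1, 56.3 and 48.3 CPM in the same regions of WT mice, and its striatum minus hippocampus difference of -0.62 in KO and -0.50 in WT was under the size threshold. Efna1 had medians of 3.09, 3.66 and 2.18 CPM in striatum, hippocampus and prefrontal cortex of KO mice and of 3.01, 3.96 and 2.25 CPM in the same regions of WT mice. Efna4, at under 1 CPM in every library, was called lower in striatum than in hippocampus in both genotypes, with medians of 0.179, 0.469 and 0.212 CPM in striatum, hippocampus and prefrontal cortex of KO mice and of 0.194, 0.477 and 0.290 CPM in the same regions of WT mice.

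The B class receptors, which bind transmembrane ephrins, differed in their leading region. Ephb1 was highest in striatum, with 73.8 to 87.4 CPM in KO and 68.7 to 94.5 CPM in WT striatum, and striatum minus hippocampus was 1.42 ± 0.06 in KO and 1.38 ± 0.06 in WT (log2, SE). Ephb2 (chr4:136647539-136835988, minus strand), which encodes a receptor of excitatory synapses, was lowest in striatum, and striatum minus hippocampus was -1.47 ± 0.07 in KO and -1.44 ± 0.05 in WT. Ephb3 and Ephb6 were highest in prefrontal cortex. Ephb6 had 198 to 266 CPM in KO and 199 to 246 CPM in WT prefrontal cortex, against at most 119 CPM in KO and 111 CPM in WT libraries of the other regions. Among the tested Eph receptors Epha8 had the greatest excess of striatum over hippocampus, 2.12 ± 0.13 in KO and 2.06 ± 0.11 in WT (log2, SE). The ephrin Efnb3 was lowest in prefrontal cortex, with 43.4 to 53.5 CPM in KO and 47.4 to 54.3 CPM in WT prefrontal cortex, against 136 to 188 CPM in KO and 144 to 186 CPM in WT striatum.

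Promoters are shown for 4 genes whose hippocampus libraries stood clear of both other regions in KO and WT alike: a neuropilin and an Eph receptor that were highest there, and an ephrin and a plexin that were lowest there. The sequences are RefSeq promoters of build GRCm38.p6, 250 bases before to 50 bases after the annotated start, read 5′ to 3′ along the gene. That start lay 32 bases from the counted 5′ end of Nrp2 and at the counted 5′ end of the others. They lie at chr1:62703067-62703366 on the plus strand for Nrp2, chr16:60605482-60605781 on the minus strand for Epha6, chr17:62881268-62881567 on the minus strand for Efna5 and chr6:115994956-115995255 on the minus strand for Plxnd1. Capitals mark the letters of the GC box, GGGCGG, on either strand, and in Epha6 also those of the CCAAT box.
Nrp2: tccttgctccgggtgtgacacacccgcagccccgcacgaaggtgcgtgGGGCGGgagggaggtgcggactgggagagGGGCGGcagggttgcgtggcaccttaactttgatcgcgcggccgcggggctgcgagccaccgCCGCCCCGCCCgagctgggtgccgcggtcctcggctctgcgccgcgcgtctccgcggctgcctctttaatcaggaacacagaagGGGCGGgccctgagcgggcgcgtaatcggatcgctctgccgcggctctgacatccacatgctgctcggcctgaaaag
Epha6: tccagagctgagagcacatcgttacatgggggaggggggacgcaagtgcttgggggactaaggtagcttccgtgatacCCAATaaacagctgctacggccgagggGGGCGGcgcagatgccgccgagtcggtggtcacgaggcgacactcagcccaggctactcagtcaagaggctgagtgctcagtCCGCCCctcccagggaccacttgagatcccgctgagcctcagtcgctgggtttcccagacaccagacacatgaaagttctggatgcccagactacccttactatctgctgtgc
Efna5: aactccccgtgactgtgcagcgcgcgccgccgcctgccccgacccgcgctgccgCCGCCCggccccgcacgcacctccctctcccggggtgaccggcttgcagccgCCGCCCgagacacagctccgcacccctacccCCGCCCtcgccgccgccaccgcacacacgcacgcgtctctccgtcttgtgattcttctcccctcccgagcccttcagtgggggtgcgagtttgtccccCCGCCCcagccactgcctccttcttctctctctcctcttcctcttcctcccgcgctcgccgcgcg
Plxnd1: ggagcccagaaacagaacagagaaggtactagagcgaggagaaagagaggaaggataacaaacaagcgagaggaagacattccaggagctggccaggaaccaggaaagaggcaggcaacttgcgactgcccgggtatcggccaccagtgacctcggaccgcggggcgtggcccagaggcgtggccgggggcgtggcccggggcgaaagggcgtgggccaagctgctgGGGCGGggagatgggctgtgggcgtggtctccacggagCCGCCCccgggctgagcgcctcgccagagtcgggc
All 4 hold a GC box on either strand, as do 35.7% of the 32851 RefSeq promoters of this length, with 5 matches in Nrp2 (a pair of which overlap), 2 in Epha6, 4 in Efna5 and 2 in Plxnd1. CCAAT, on either strand in 37.4% of all promoters, occurred in 1 of the 4. The letters TATAAA (13.6% of promoters), TGACGTCA (1.79%) and CACGTG (7.15%) were in none of these 4 windows. Genes that were high and genes that were low in hippocampus thus held the same GC box letters, and a match describes letters only. Of the 70 genes, 60 had an entry in the RefSeq table.

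Slit1 (chr19:41600257-41743665, minus strand), which encodes a secreted repellent, had 29.8 to 54.6 CPM in KO (median 40.5) and 30.9 to 53.3 CPM in WT striatum (median 40.8), 206 to 273 CPM in KO (median 242) and 215 to 280.3 CPM in WT hippocampus (median 239), and 51.7 to 70.3 CPM in KO (median 59.7) and 47.6 to 69.96 CPM in WT prefrontal cortex (median 59.3). Hippocampus stood clear of both other regions, and striatum minus hippocampus was -2.53 ± 0.09 in KO and -2.49 ± 0.08 in WT (log2, SE; adjusted p of 8.71e-21 in KO and 4.83e-22 in WT, edgeR). Slit2 had a striatum minus hippocampus difference of -1.44 ± 0.11 in KO and -1.16 ± 0.09 in WT, and Slit3 was not called in any contrast. Of the 4 Robo genes, 0 were called in any region contrast of either genotype, against 9.74% to 12.6% of all genes. A family of 4 turns on few genes, and 0 of 4 is near these shares. The adjusted p of Robo2 was under 0.05 in all 3 contrasts of both genotypes (edgeR). In single contrasts 62.5% to 71.5% of all genes were under 0.05. Robo2 had medians of 182, 111 and 141 CPM in striatum, hippocampus and prefrontal cortex of KO mice and of 184, 106 and 139 CPM in the same regions of WT mice, with hippocampus at the low end, where Slit1 was highest. Robo4 also had its lowest medians in hippocampus, but Robo3 had them in prefrontal cortex (7.32 CPM in KO and 5.95 CPM in WT). Robo1 had 62.8 to 89.4 CPM in KO and 59.7 to 75.6 CPM in WT hippocampus. In prefrontal cortex it had 35.9 to 63.4 CPM in KO and 46.25 to 66.8 CPM in WT.

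Netrin genes differed in opposite directions. Ntn5, a netrin known from neurogenic niches, had 0.320 to 1.39 CPM in KO and 0.474 to 1.17 CPM in WT striatum, 3.36 to 9.80 CPM in KO and 5.14 to 9.76 CPM in WT hippocampus, and 2.18 to 3.21 CPM in KO and 1.35 to 2.38 CPM in WT prefrontal cortex. Its log2 difference of striatum minus hippocampus was -3.15 ± 0.20 in KO and -3.25 ± 0.14 in WT (SE), and it overlaps Sec1 on the opposite strand in counts that were made by strand. Ntn1, the classic netrin attractant, had 14.4 to 20.96 CPM in KO and 13.9 to 19.6 CPM in WT striatum, where every library lay above those of the other regions. Its difference from hippocampus was 1.01 ± 0.06 in KO and 1.02 ± 0.06 in WT, and 0.99 in WT mice without replicate 5, short of the size threshold. Dcc, the attractive netrin receptor, had medians of 34.5, 25.2 and 10.97 CPM in striatum, hippocampus and prefrontal cortex of KO mice and of 36.9, 25.9 and 10.8 CPM in the same regions of WT mice. Striatum minus prefrontal cortex was 1.69 ± 0.13 in KO and 1.83 ± 0.10 in WT and hippocampus minus prefrontal cortex 1.22 ± 0.13 in KO and 1.34 ± 0.10 in WT for Dcc (log2, SE).

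The Unc5 receptors, which mediate repulsion by netrins, did not share a leading region. With Dcc they make 5 netrin receptors, whose calls between striatum and prefrontal cortex were 2 higher and 0 lower in KO and 2 higher and 0 lower in WT (40% in KO and 40% in WT, against 12.6% in KO and 11.6% in WT of all genes). Between hippocampus and prefrontal cortex the share was also 40% in each genotype, against 9.74% in KO and 10.1% in WT of all genes. Between striatum and hippocampus it was 20% in KO and 0% in WT, against 10.4% and 10.2% of all genes. A family of 5 turns on few genes. Unc5b was highest in striatum, with medians of 62.3, 24.5 and 17.6 CPM in striatum, hippocampus and prefrontal cortex of KO mice and of 60.7, 28.6 and 15.8 CPM in the same regions of WT mice. Unc5c was highest in hippocampus, with medians of 39.5, 77.7 and 33.98 CPM in striatum, hippocampus and prefrontal cortex of KO mice and of 40.7, 76.1 and 33.4 CPM in the same regions of WT mice. It was called between hippocampus and prefrontal cortex only, in both genotypes. Unc5a was also highest in hippocampus, but neither Unc5a nor Unc5d was called in any contrast. Ntng1 and Ntng2, membrane-held netrin-G ligands, were not called in WT, and Ntng1 was called between hippocampus and prefrontal cortex in KO, with a log2 difference of 1.04 ± 0.24 in KO and 0.73 ± 0.17 in WT (SE).

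Most calls were shared by the genotypes. Between striatum and hippocampus 19 genes were called in both, of 22 in KO and 19 in WT. Between striatum and prefrontal cortex 14 were shared of 16 in KO and 15 in WT, and between hippocampus and prefrontal cortex 15 of 17 in KO and 16 in WT. Shared calls had the same sign. The share of all genes called in both genotypes was not taken, so whether these genes share calls more often than others was not tested. Called in KO alone were Epha5, Unc5b and Plxnb3 (striatum against hippocampus), Epha10 and Slit2 (striatum against prefrontal cortex), and Efna4 and Ntng1 (hippocampus against prefrontal cortex). Called in WT alone were Ephb1 (striatum against prefrontal cortex) and Sema3b (hippocampus against prefrontal cortex). Choroid plexus markers had a median sum of 418 CPM in KO and 1488 CPM in WT hippocampus, and their part in that call was not tested. In the genotype by region interaction, which tests whether region differences differ between genotypes, edgeR called 0 of these genes (0.0248% among all genes). Their values lay on either side of the size threshold, as with Epha5 at -1.02 in KO and -0.80 in WT and Ephb1 at 0.99 in KO and 1.06 in WT (log2).

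**Figure D3:**
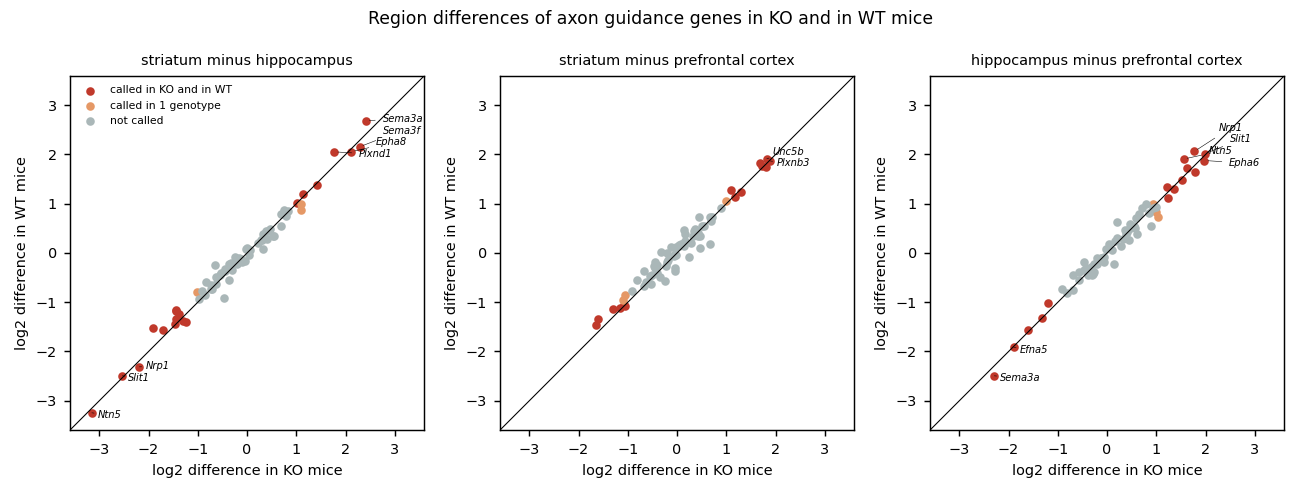
Region differences of the 69 tested genes in KO mice (x axis, log2) against WT mice (y axis, log2) for the 3 contrasts; the line marks equal values, and colour marks genes called in both genotypes, in 1 or in neither. Points follow the line, with a median absolute gap between genotypes of 0.10 (striatum against hippocampus), 0.09 (striatum against prefrontal cortex) and 0.10 (hippocampus against prefrontal cortex).

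Separation of libraries needs no threshold on size. Every hippocampus library exceeded all other libraries of its genotype for 13 of 69 genes in KO (18.8%, against 4.7% of all genes) and 16 of 69 in WT (23.2%, against 5.24%). Of these, 12 were shared by the genotypes, among them Nrp1, Nrp2, Slit1, Plxna4, Sema5a, Unc5a and Unc5c. Hippocampus was lowest for 9 genes in KO (13%, against 3.83%) and 6 in WT (8.70%, against 4.84%), with 5 shared: Efna5, Efnb2, Plxnd1, Sema3a and Sema7a. Striatum was highest for 6 genes in KO (8.70%, against 7.36%) and 10 in WT (14.5%, against 8.66%), and the KO share lies near that of all genes. It was lowest for 9 in KO (13%, against 5.58%) and 8 in WT (11.6%, against 6.08%), with 5 shared: Ephb2, Ntn5, Plxna1, Sema4f and Sema6c. Prefrontal cortex was highest for 5 genes in KO (7.25%, against 6.8%) and the same 5 in WT (7.25%, against 7.99%), shares near those of all genes. It was lowest for 8 in KO (11.6%, against 5.2%) and the same 8 in WT (11.6%, against 6.45%): Dcc, Efnb3, Plxnb1, Plxnb3, Sema3e, Sema6d, Slit3 and Unc5b.

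Between KO and WT mice 0 of the axon guidance genes were called in any region by edgeR's quasi-likelihood test at an adjusted p under 0.05. These were 0 of 69 in striatum (0.0514% among all genes), 0 of 69 in hippocampus (0.128%) and 0 of 69 in prefrontal cortex (0.117%). At an unadjusted p under 0.05 there were 6 genes in striatum (8.70%, against 7.14% of all genes), 5 in hippocampus (7.25%, against 8.14%) and 16 in prefrontal cortex (23.2%, against 11.8%). DESeq2 called 0 in striatum, 0 in hippocampus and 3 in prefrontal cortex, and limma voom with quality weights 0, 0 and 0. The shares of all genes are those of edgeR, and none was taken for DESeq2 or voom, so the DESeq2 count stands without one. The log2 differences of KO minus WT ran from -0.36 to 0.31 in striatum, -0.42 to 0.22 in hippocampus and -0.37 to 0.38 in prefrontal cortex. For 0 genes did the KO and WT libraries of a region stay apart without overlap, against 0.0193%, 0.0321% and 0.026% of all genes in striatum, hippocampus and prefrontal cortex.

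**Figure D4:**
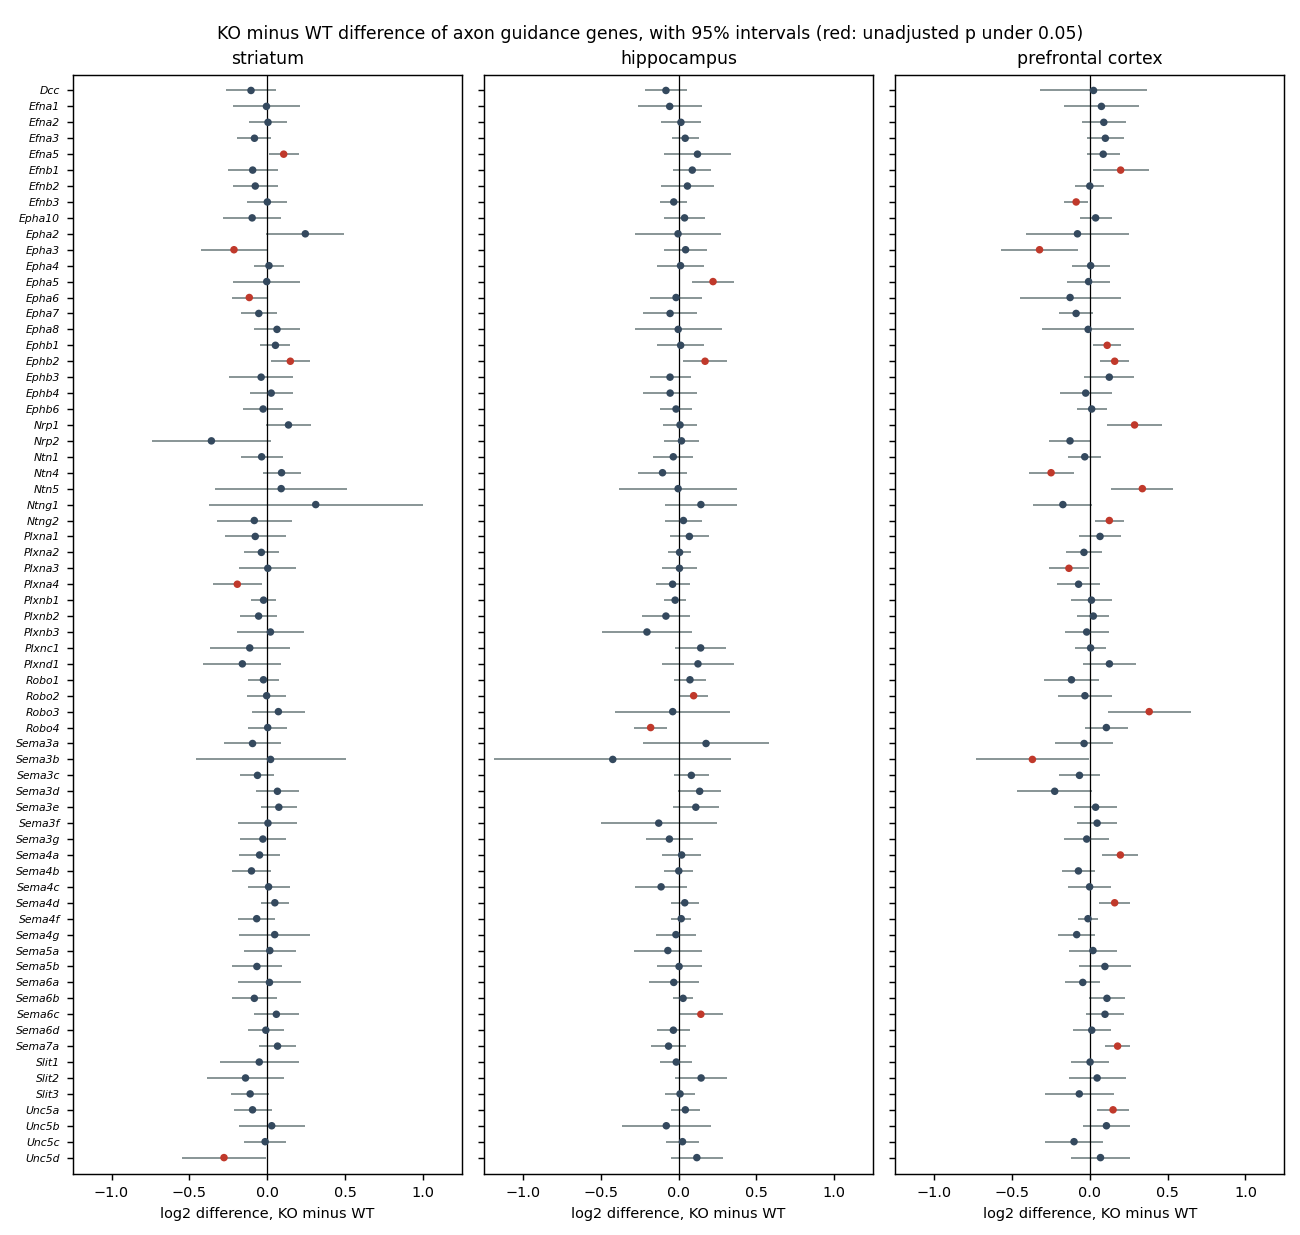
KO minus WT difference of 68 genes on the log2 scale (x axis) in striatum, hippocampus and prefrontal cortex, with edgeR estimates as dots and 95% intervals as lines. Coloured dots have an unadjusted p under 0.05 and number 6, 5 and 16 in these regions, and 0 genes were called after adjustment.

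Sema7a (chr9:57940112-57962865, plus strand), whose product binds integrins and plexin-C1, had the smallest p in prefrontal cortex. It had 162 to 202 CPM in KO (median 185) and 153 to 176 CPM in WT prefrontal cortex (median 164). The ranges overlapped, and the log2 difference was 0.18 ± 0.04 (SE; adjusted p of 0.0732, edgeR). DESeq2 called it (0.18, adjusted p of 0.00513), and edgeR called it without KO replicate 1, KO replicate 7 or WT replicate 7 (adjusted p of 0.0206, 0.0400 and 0.0408), within a range of 0.00513 to 0.943 over all alternatives. Olfactory bulb markers (Eomes, Doc2g, Cdhr1 and Tbx21) summed to 4.32 to 50.8 CPM in KO (median 6.92) and 5.45 to 98.3 CPM in WT prefrontal cortex (median 48.02). With their mean log2 level as a covariate in the edgeR fit the Sema7a difference was 0.12 (adjusted p of 0.943). The marker level differed between the genotypes, so that fit cannot tell olfactory bulb tissue and genotype apart. The part of this tissue in the Sema7a difference was not tested.

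Ephb2 had a positive KO minus WT difference in each region. Its level was 10.3 to 14.4 CPM in KO (median 12.2) and 9.39 to 12.4 CPM in WT striatum (median 11.2), 28.7 to 43.2 CPM in KO (median 31.96) and 25.5 to 34.4 CPM in WT hippocampus (median 29.98), and 23.2 to 29.5 CPM in KO (median 25.4) and 20.1 to 24.5 CPM in WT prefrontal cortex (median 23.4). The genotypes overlapped in all 3 regions. The log2 differences were 0.15 ± 0.06 in striatum, 0.17 ± 0.07 in hippocampus and 0.16 ± 0.04 in prefrontal cortex (SE), with adjusted p of 0.668, 0.540 and 0.127 in edgeR. DESeq2 called Ephb2 in prefrontal cortex (0.16, adjusted p of 0.0439), within a range of 0.0439 to 0.943 over all alternatives.

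Other prefrontal genes with small unadjusted p had differences of both signs. Ntn4, a netrin of basement membranes, had 6.06 to 7.74 CPM in KO (median 7.01) and 6.83 to 9.44 CPM in WT prefrontal cortex (median 7.62), a difference of -0.25 ± 0.07 (SE; adjusted p of 0.133 in edgeR and 0.0476 in DESeq2). With the olfactory bulb covariate the difference was -0.13 for Ntn4, against -0.25 without it, and 0.22 for Ntn5, against 0.34. That covariate itself differed between the genotypes. Ephb2 and Sema4a moved less, with 0.14 for Ephb2, against 0.16 without the covariate, and 0.20 for Sema4a, against 0.20. Nrp1 had a difference of 0.29 ± 0.08 (adjusted p of 0.152 in edgeR), and was called when all 60 libraries were fitted together. Values for Sema4a, Sema4d, Robo3, Unc5a, Ntng2, Ephb1 and Efnb1 were 0.20, 0.16, 0.38, 0.15, 0.13, 0.11 and 0.20 (log2, KO minus WT). Values for Epha3, Efnb3, Plxna3 and Sema3b were -0.32, -0.09, -0.13 and -0.37.

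**Figure D5:**
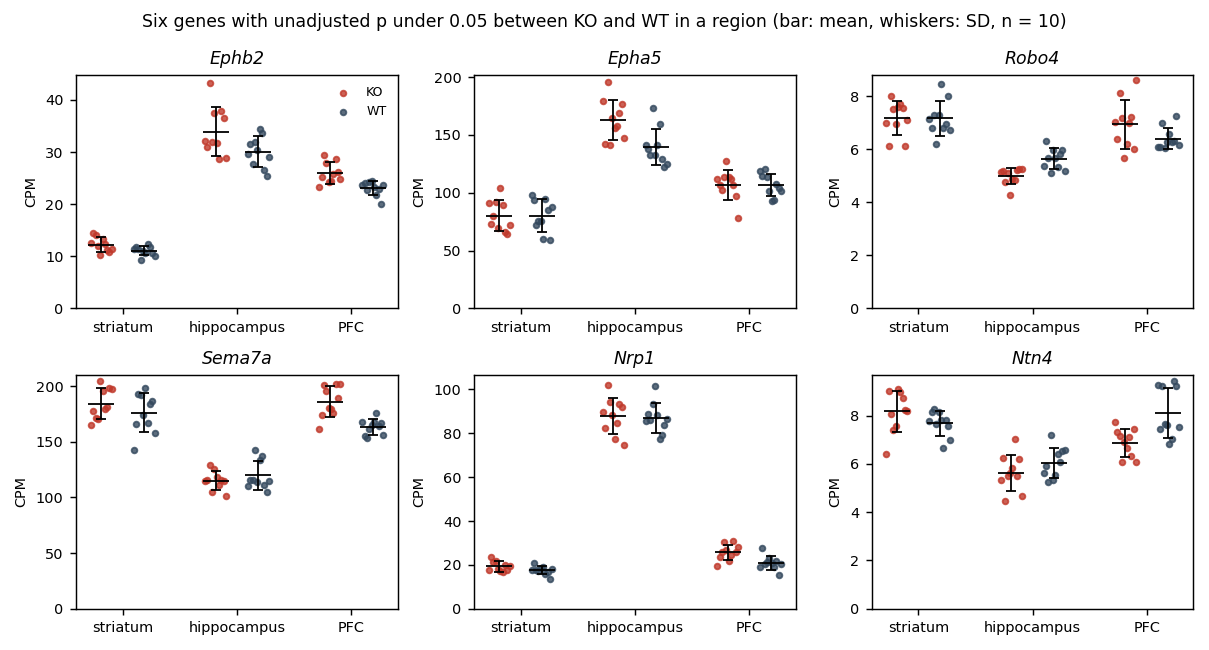
Levels in CPM (y axis, linear, from 0) of 6 genes with an unadjusted p under 0.05 between KO and WT in a region, KO left of WT. Each dot is a library, and the bar and whiskers are the mean and SD of 10 libraries; KO and WT dots overlap in each panel.

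In hippocampus the smallest p belonged to Robo4, a Robo receptor of blood vessels. It had 4.26 to 5.24 CPM in KO (median 5.12) and 5.11 to 6.31 CPM in WT hippocampus (median 5.66), a log2 difference of -0.18 ± 0.05 (SE; adjusted p of 0.345, edgeR). Endothelial markers summed to 130 to 167 CPM in KO and 136 to 169 CPM in WT hippocampus. Epha5 (chr5:84054761-84417382, minus strand) followed with 141 to 195 CPM in KO (median 161) and 122 to 173 CPM in WT hippocampus (median 136), a difference of 0.22 ± 0.06 (adjusted p of 0.349, edgeR). In striatum the smallest p belonged to Plxna4, with 82.5 to 121 CPM in KO and 95.2 to 130.1 CPM in WT striatum and a difference of -0.19 ± 0.08 (adjusted p of 0.668, edgeR). Striatal differences of Efna5, Unc5d, Epha3 and Epha6 were 0.11, -0.28, -0.21 and -0.12. Cortical excitatory neuron markers had a median sum of 689 CPM in KO and 784 CPM in WT striatum, and their part in these differences was not tested.

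Adgrl3 lies on chromosome 5 with 7 of the 70 genes, of which 0 were called between KO and WT in any region. Among all genes 0.0514% were called in striatum, 0.128% in hippocampus and 0.117% in prefrontal cortex, and 0 of 7 is near these shares. Epha5 is the nearest to Adgrl3, 2.23 Mb away. Its log2 difference was -0.00 ± 0.10 in striatum, 0.22 ± 0.06 in hippocampus and -0.01 ± 0.07 in prefrontal cortex (SE). Slit2, 32.7 Mb away, had differences of -0.14, 0.15 and 0.05 in these regions. Ephb4, Sema3c, Sema3e, Sema3a and Sema3d lie 55.5 to 68.4 Mb away, and their differences ran from -0.23 (Sema3d in prefrontal cortex) to 0.18 (Sema3a in hippocampus).

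Counts of the 3 regions were also added for each genotype and replicate number, which gave 10 KO and 10 WT sums. Of 70 genes 0 were called by edgeR (0.162% among all genes) and 0 by DESeq2, and 6 had an unadjusted p under 0.05 (8.57%, against 10.5% of all genes). Ephb2 had the smallest p (0.15 ± 0.04, SE; adjusted p of 0.198, edgeR). It was called at 0.16 (adjusted p of 0.00256) when the 60 libraries were fitted singly with region as a term, a fit that takes libraries of the same number as independent. Efna5, Sema6c, Sema4d, Ephb1 and Sema7a had differences of 0.10, 0.10, 0.08, 0.07 and 0.08 in the sums. In the genotype by region interaction 0 of 70 genes were called by edgeR (0.0248% among all genes) and 0 by DESeq2, while 12 had an unadjusted p under 0.05 (17.1%, against 3.95% of all genes). Robo4, Ntn4 and Sema7a had the smallest p, with adjusted p of 0.859, 0.940 and 0.982 in edgeR. The interaction fit also took libraries of the same number as independent.

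Genes at 1 CPM or more varied little between libraries of a group, with a median coefficient of variation of 10.2% to 12.3% over the 6 groups. Exceptions in striatum included Nrp2, with 30.6% in KO and 28.1% in WT, Unc5d, with 16.3% in KO and 24.6% in WT, and Ntng1. Ntng1 had 12.3 to 66.3 CPM in KO (median 26.2) and 13.8 to 45.4 CPM in WT striatum (median 20.4). Its highest KO libraries, replicates 10 and 2, also had the most RNA of 7 hypothalamus and septum markers, 135 and 113 CPM, against at most 76.2 CPM in the other KO libraries. In WT striatum replicates 3, 6 and 5 had the most Ntng1, with 33.2, 39.0 and 40.3 CPM of these markers, against at most 24.4 CPM in the other WT libraries. Sema3b, another class 3 semaphorin, had 1.54 to 8.78 CPM in KO (median 2.73) and 1.27 to 9.37 CPM in WT hippocampus (median 4.64). Its highest libraries, KO replicates 2 and 6 and WT replicate 10, had 3037, 2625 and 2663 CPM of 6 choroid plexus markers, which summed to 38.6 to 3037 CPM in KO and 53.1 to 2663 CPM in WT hippocampus. The part of these tissues in the levels of Ntng1 and Sema3b was not tested.

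Other genes of the pathway were taken from 2 lists chosen by known function. Those named from the lists are examples of large differences, and the other called genes are not shown. Of 18 further cues, co-receptors and binding partners, 3 in KO and 1 in WT were called between striatum and hippocampus, 4 in KO and 4 in WT between striatum and prefrontal cortex, and 3 in KO and 3 in WT between hippocampus and prefrontal cortex. These shares were 16.7% in KO and 5.56% in WT, 22.2% in KO and 22.2% in WT, and 16.7% in KO and 16.7% in WT, against 10.4% in KO and 10.2% in WT, 12.6% in KO and 11.6% in WT, and 9.74% in KO and 10.1% in WT of all genes in the same contrasts. A list of 18 turns on few genes, and the WT share between striatum and hippocampus lay under that of all genes. Draxin, a secreted protein that binds Dcc, had a hippocampus minus prefrontal cortex difference of 2.62 ± 0.20 in KO and 2.30 ± 0.13 in WT (log2, SE). Rtn4r, the Nogo receptor gene, had a striatum minus prefrontal cortex difference of -2.27 ± 0.11 in KO and -2.06 ± 0.08 in WT. Flrt1, of the family that binds both latrophilins and Unc5 receptors, had a hippocampus minus prefrontal cortex difference of -1.19 ± 0.08 in KO and -1.06 ± 0.07 in WT. Of 40 intracellular effectors, 6 in KO and 6 in WT were called between striatum and hippocampus, 5 in KO and 4 in WT between striatum and prefrontal cortex, and 3 in KO and 3 in WT between hippocampus and prefrontal cortex. These shares were 15% in KO and 15% in WT, 12.5% in KO and 10% in WT, and 7.5% in KO and 7.5% in WT, and those in both contrasts with prefrontal cortex were at or under the shares of all genes. Ngef, which encodes ephexin, a protein that acts downstream of EphA receptors, had a striatum minus hippocampus difference of 2.53 ± 0.07 in KO and 2.45 ± 0.07 in WT, and Srgap1, which acts downstream of Robo receptors, one of 2.01 ± 0.05 in KO and 1.94 ± 0.07 in WT. Between KO and WT 0 of the 18 and 0 of the 40 were called in any region or in the sums (edgeR). Among all genes 0.0514% were called in striatum, 0.128% in hippocampus, 0.117% in prefrontal cortex and 0.162% in the sums, so these counts are near the shares of all genes.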

How the data were processed

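RNA-seq libraries of striatum, hippocampus and prefrontal cortex from KO and WT mice were analysed from a table of read counts per gene, deposited by the authors. The counts were assumed to be raw. Per the file headers each row is a whole gene with its coordinates. Per the submitters' processing notes, the build was GRCm38 and the tools were STAR 2.5.2b, DESeq2 1.16.1, bedtools, cutadapt 1.16 and FastQC 0.11.4, whose roles are left unstated. No strand setting is given in the sources used here; among 493 nested pairs of genes on the same strand 0 had fewer reads in the outer gene, against 82 of 222 on opposite strands, so reads were taken as counted by strand. Of the 70 genes, 5 overlap a gene on the opposite strand and 0 on the same strand. Ntn3 is not analysed here.

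The main test was edgeR 4.0.16 (quasi-likelihood F test, TMM scaling, filterByExpr, robust) in R 4.3.3, fitted on all genes with Benjamini-Hochberg adjustment at 0.05. Region contrasts also needed an absolute log2 difference of 1. KO and WT were compared on the 20 libraries of each region, on 20 sums over regions, and by a genotype by region interaction on 60 libraries. Alternatives were RLE scaling, other filters on low counts, DESeq2 1.42.0, limma 3.58.1 voom, replicate blocks, other sets of libraries, an olfactory bulb covariate, and each KO/WT library or sum left out in turn. Standard errors are the absolute log2 difference over the square root of F. The scripts were tested on simulated data.

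Replicate numbers were checked as pairs by correlating deviations from group means. Within a genotype all 10 same-numbered pairs exceeded 0.1 for hippocampus with prefrontal cortex (medians 0.249 in KO, 0.211 in WT) and for prefrontal cortex with striatum (0.266 in KO, 0.214 in WT), but 8 of 10 for hippocampus with striatum, so sums were used for the combined comparison. Between KO and WT the medians were -0.0796 in striatum, -0.132 in hippocampus and -0.0382 in prefrontal cortex, so genotypes were not paired.

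Named genes were Adgrl3, up to 8 called genes per direction of each WT region contrast, the genes of smallest p between KO and WT (5 per comparison, 3 for the interaction), genes on chromosome 5, the highest gene per kb of each family, genes under 1 CPM, and matched ligands or receptors. Genes called in 1 genotype alone, the other prefrontal genes at an unadjusted p under 0.05, other EphA receptors and ephrin-A ligands, and Ntng1 and Sema3b for their spread were named after their values were seen. Draxin, Rtn4r, Ngef and Srgap1 of the pathway lists were named under no rule set beforehand. The genes, marker lists and pathway lists were chosen with earlier results of these data known.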

Additional observations from a re-analysis of the deposited data

Results flagged for a closer look

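Among 210 groups of 10 libraries, covering 35 of the genes, 7 had a library whose gap to its nearest neighbour was large against the range of its group (above Dixon's 95% critical value). Chance alone flags about 1 group in 20. Dcc had 44.32 CPM in WT striatum replicate 9, with the next library at 38.49 CPM. Epha6 had 115.8 CPM in WT hippocampus replicate 4, with the next at 96.09 CPM. Ephb3 had 15.67 CPM in KO striatum replicate 6, with the next at 11.84 CPM. Ntn1 had 10.9 CPM in WT prefrontal cortex replicate 3, with the next at 9.61 CPM. Ntn5 had 3.214 CPM in KO prefrontal cortex replicate 10, with the next at 2.54 CPM. Robo4 had its lowest level, 4.255 CPM, in KO hippocampus replicate 5, with the next at 4.776 CPM. Sema5a had 85.14 CPM in KO striatum replicate 2, with the next at 67.31 CPM, and this library was also among the highest for Ntng1.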

How the results depend on the processing

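Counts of called genes moved by more than 1.5 times in few settings. Between KO and WT in prefrontal cortex the count was 0 by edgeR, 3 by DESeq2 (Sema7a, Ephb2 and Ntn4), 1 when all 60 libraries were fitted together (Nrp1), and 0 to 1 with a library left out, where the gene was Sema7a. In the sums over regions it was 0, and 1 (Ephb2) with 60 libraries and region as a term. Shares of all genes were taken for the main fits only, so counts from other fits stand without one. Without a threshold on size the region contrasts called 59 in KO and 60 in WT (striatum against hippocampus), 54 in KO and 58 in WT (striatum against prefrontal cortex), and 60 in KO and 62 in WT (hippocampus against prefrontal cortex), which is 85.5%, 87%, 78.3%, 84.1%, 87% and 89.9% of the 69 genes in that order, against 62.5%, 66.6%, 70.9%, 71.5%, 66% and 68.5% of all genes. With a replicate block the region counts were 22, 16 and 18 in KO and 19, 15 and 15 in WT, and those between KO and WT stayed at 0 in each region, in the sums and in the interaction; the numbers do not pair KO with WT libraries. Without WT replicate 5 the WT counts were 18, 16 and 16. Added after the data were seen, leaving out KO hippocampus replicate 2 gave 22 and 17 in the hippocampus contrasts of KO, and leaving out WT hippocampus replicate 8 gave 20 and 15 in those of WT. Values of single genes changed sign in 0 of these settings, 7 came past the threshold and 2 lost it. The cause of these changes was not tested. Genes under 1 CPM, Epha1 and Efna4, are limited by depth.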
